A study of Homo sapiens with 4 samples.

Results

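The integrated stress response and the targets of its transcription factor ATF4 were followed through a polyribosome profiling experiment in KYSE-150 cells, which are a carcinoma line from the squamous epithelium of the esophagus. The 33 genes were chosen by symbol, from knowledge of the pathway and with earlier results of these data known. All 33 were among the 17064 rows of the table. A mean of at least 5 FPKM (fragments normalized to transcript length and library size) over the 4 libraries was reached by 27 of them and by 7379 genes in all. The study asked how loss of NSUN6, an RNA methyltransferase that forms 5-methylcytosine, changes the translation of mRNAs. Control cells with normal NSUN6 and cells with a stable short hairpin RNA against NSUN6 were both treated with cycloheximide, which arrests elongating ribosomes on their messages. A portion of the lysate served as input, and polyribosome-bound RNA was pelleted from the remainder through sucrose. Each of the 4 groups (input and polyribosome RNA of control and of knockdown cells) had 1 library. No difference below has a replicate check, none was tested, and the read depth is unknown.

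In the integrated stress response, kinases that sense unfolded protein, amino acid shortage, double-stranded RNA or heme shortage phosphorylate the initiation factor eIF2. This slows initiation on most messages, while messages with short upstream open reading frames, such as that of ATF4, are translated better. ATF4 then activates genes for amino acid synthesis, amino acid uptake and tRNA charging, and genes that end or redirect the response, among them the phosphatase subunit PPP1R15A and the death-promoting factor DDIT3 (CHOP). Tumor cells use the same genes to keep up serine, asparagine and cysteine supply.

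Several features of the knockdown-labelled libraries stand beside every comparison. The table ends with another row of column names, which calls them K30 cells with a hairpin against Mettl1 and swaps their input and polyribosome columns relative to the header. The order of the header, which fits the sample descriptions, was followed. Values with the fractions exchanged are given for members past the mean of 5 FPKM whose difference between cells crossed the 2-fold line on exchange. For other genes they are given only in part. NSUN6 was at 8.85 and 10.1 FPKM in control input and polyribosome RNA and at 3.83 and 0.38 FPKM in the knockdown-labelled libraries, and METTL1 was at 13.0, 14.3, 5.98 and 8.32 FPKM in the same order. As log2(FPKM + 1) differences from control in input and on polyribosomes, METTL1 was at -1.01 and -0.72, or -0.59 and -1.13 with the fractions exchanged. The fixed squamous epithelium markers (7 of 7 in the table) summed to 1231 and 1567 FPKM in control and to 130 and 106 FPKM in the knockdown-labelled libraries, with KRT5 at 906 and 1162 against 0.45 and 0.70 FPKM but KRT6A at 29.5 and 39.8 against 34.3 and 40.0 FPKM. The simple epithelium markers (7 of 7) summed to 3213 and 4302 FPKM in control and to 6573 and 7229 FPKM in the knockdown-labelled libraries. Among them KRT19 was at 0.07 and 1.02 against 1488 and 1973 FPKM, while KRT18 was at 1616 and 2073 against 1756 and 2185 FPKM. The 16 fixed markers of fibroblasts, endothelium, blood and immune cells summed to 76.5 and 74.5 FPKM in control, mostly from CD68 at 71.2 and 69.3 FPKM, and to 11.9 and 11.6 FPKM in the knockdown-labelled libraries. LUM was listed at 0 in control input and knockdown-labelled polyribosome RNA, and PECAM1, CD3E and PTPRC were under 1 FPKM in all 4 libraries. A difference in cell identity and the effect of the hairpin cannot be told apart in these libraries.

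The stress response genes spanned a wide range of expression. In control input DDIT4 and SLC7A5, at 606 and 615 FPKM, were the most abundant, followed by ATF4 itself at 432 FPKM, whereas ALDH1L2 (0.10 FPKM) and CBS (0.02 FPKM) were near 0. In knockdown-labelled input the order was different: SLC1A5 led at 249 FPKM, followed by ATF4 at 180 and SLC7A5 at 140 FPKM. The 6 genes under the mean of 5 FPKM were NUPR1, EIF2AK3, ALDH1L2, CBS, SLC7A11 and VLDLR, and they entered none of the counts.

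**Figure D1:**
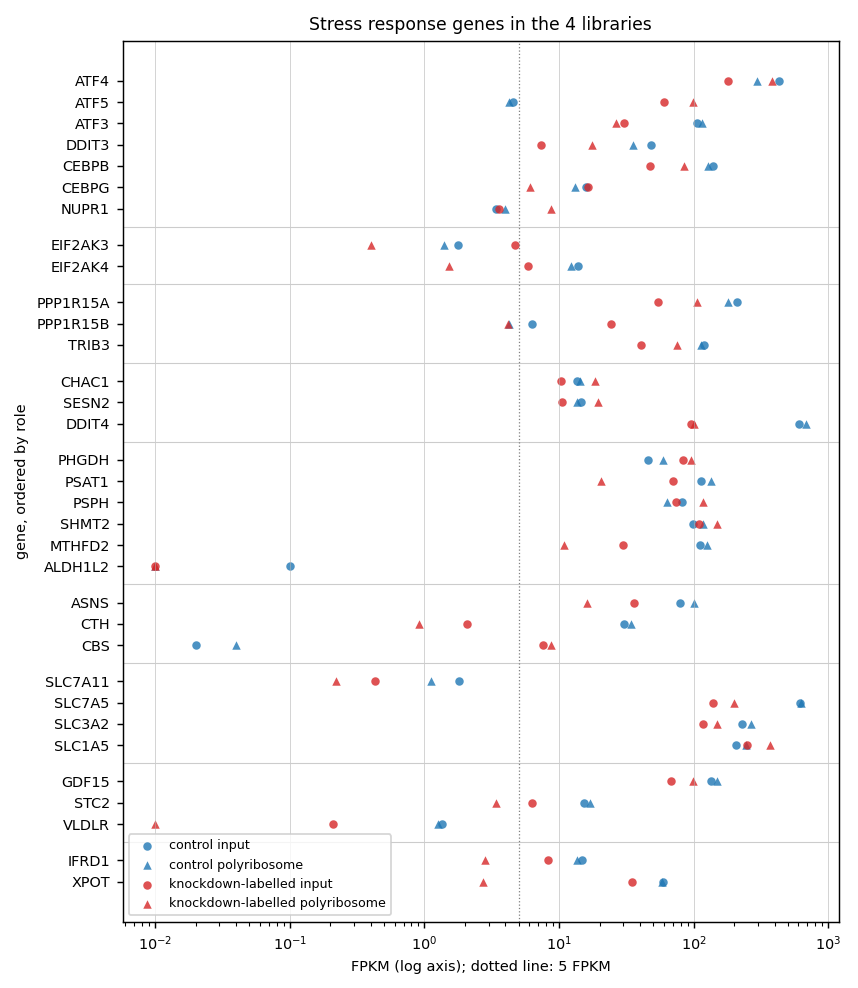
FPKM (log axis) of the 33 stress response genes in the 4 libraries, ordered by role. Circles are input and triangles polyribosome RNA, blue is control and red knockdown-labelled, with 1 library per symbol. DDIT4, CTH and SLC7A5 lie to the left in both red libraries, ATF5 and CBS to the right.

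Changes between cells were taken as differences of log2(FPKM + 1), knockdown-labelled minus control, and a gene was counted when it differed at least 2-fold. In input, 13 of 27 genes were at least 2-fold lower in the knockdown-labelled library, where 14.4% of the 7379 genes were, and 2 were at least 2-fold higher, against 13.2% of all genes. The median of the 27 was -0.99 and that of all genes 0.01. In such bulk RNA, fewer cells with a message and less of it per cell cannot be told apart. On polyribosomes, 12 of 27 were at least 2-fold lower (32.9% of all genes) and 1 was higher (16.7% of all genes), with a median of -0.83 against -0.28 for all genes. In 7 of the 27 genes (25.9%) each knockdown-labelled library was at least 2-fold below each control library, which does not depend on the order of the fractions and held for 7.02% of all genes. These were ATF3, DDIT4, MTHFD2, ASNS, CTH, SLC7A5 and STC2. Only ATF5 was at least 2-fold above in this way (6.57% of all genes). With the fractions exchanged, 13 of 27 genes were at least 2-fold lower in input, where 31.8% of all genes then were, and 13 of 27 on polyribosomes, where 14.0% were. The 9 genes lower in input in either order were ATF3, DDIT3, EIF2AK4, DDIT4, MTHFD2, ASNS, CTH, SLC7A5 and STC2 (33.3% of the 27, and 8.66% of all genes).

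**Figure D2:**
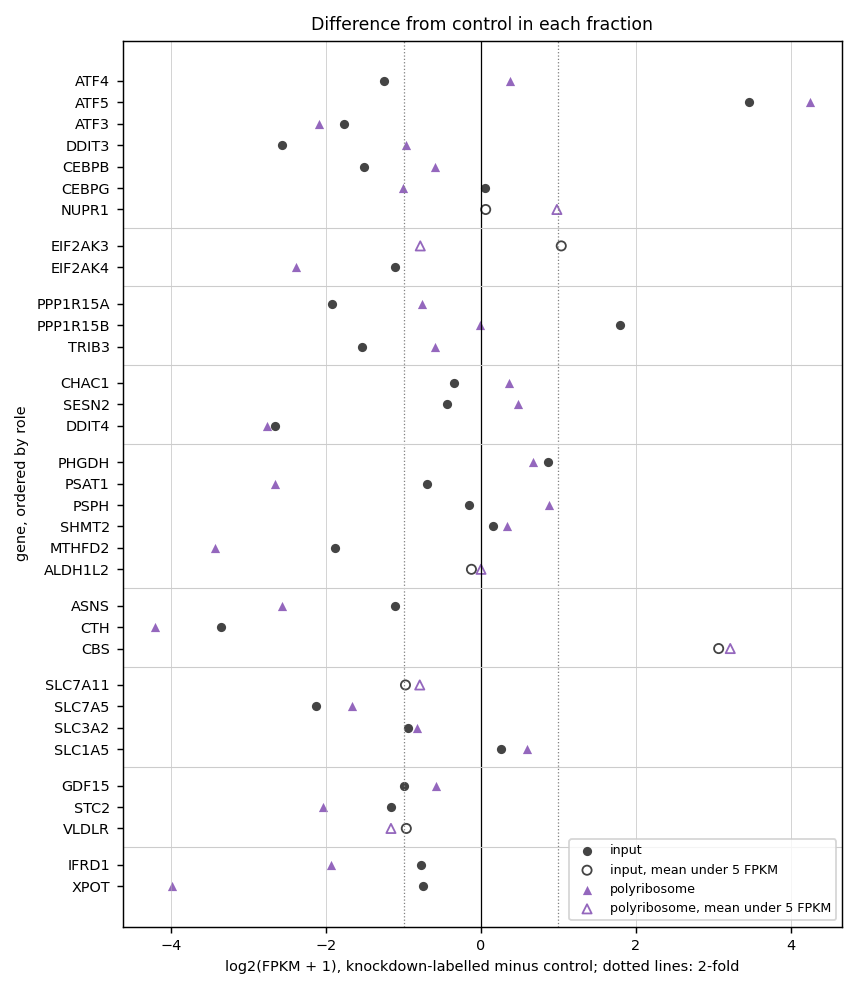
Difference from control, log2(FPKM + 1), for each of the 33 genes in input (black circles) and polyribosome RNA (purple triangles), knockdown-labelled minus control. Open symbols are genes with a mean under 5 FPKM, and dotted lines mark 2-fold. Most filled circles lie left of 0, from CTH at -3.36 upward, and ATF5 stands apart at 3.46.

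ATF4 and C/EBP factors bind composite sites known as C/EBP-ATF response elements, and the letters TGATGNAA were searched on both strands of the RefSeq promoters (GRCh38.p14, 250 bases before to 50 after a start). Of the 28 members with an entry, 8 held a match (28.6%), against 4.46% of 27305 genes. Members had more entries each, and by promoter the shares were 17.0% of 47 and 3.62% of 35116. The list was chosen for ATF4 targets and their pathway, so a higher share than in all genes tests nothing. No entry was found for NUPR1, PSPH, SHMT2, ALDH1L2 and SLC7A11. The matches in IFRD1 and SLC3A2 lay after the start. The other 6 are shown because they place the element in genes that went in different directions in these cells, in lower case with the matching letters in capitals, on the strand of the gene (CHAC1 holds the match on the opposite strand). When the free letter is C, the element contains GCAA, the core of a C/EBP site.
ASNS, chr7:97872453-97872492, minus strand: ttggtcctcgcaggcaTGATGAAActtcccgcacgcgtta
ATF3, chr1:212565200-212565239, plus strand: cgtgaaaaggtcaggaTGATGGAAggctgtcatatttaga
CEBPG, chr19:33374055-33374094, plus strand: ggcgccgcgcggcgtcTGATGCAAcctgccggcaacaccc
PPP1R15B, chr1:204412021-204412060, minus strand: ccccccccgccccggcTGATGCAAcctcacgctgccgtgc
SLC1A5, chr19:46784888-46784927, minus strand: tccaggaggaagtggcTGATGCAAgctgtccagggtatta
CHAC1, chr15:40953246-40953285, plus strand: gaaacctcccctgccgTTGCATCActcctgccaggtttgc
The ASNS match lies 68 to 61 bases before the start and the CEBPG match 42 to 35 bases before it. In input, the genes with these sites were at -1.11 (ASNS), -1.77 (ATF3), 0.05 (CEBPG), 1.80 (PPP1R15B), 0.26 (SLC1A5) and -0.35 (CHAC1) on the log2 scale. With the fractions exchanged they were at -2.23, -1.97, -1.27, -0.49, 0.83 and 0.42 in the same order of genes. They thus did not share a direction in either order of the fractions, but which genes lay above 0 depended on that order. A match is a description of the letters and shows no binding.

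Among the transcription factors, ATF4 itself was abundant in all 4 libraries, while its relatives went both ways. ATF4 was at 432 and 294 FPKM in control input and polyribosome RNA and at 180 and 380 FPKM in the knockdown-labelled libraries. Its input was thus lower (-1.26) and its polyribosome RNA slightly higher (0.37). Exchanging the fractions made these -0.18 and -0.70, so neither was past 2-fold. ATF5, a relative that is also under upstream reading frame control, was at 4.57 and 4.25 FPKM in control and at 60.2 and 98.3 FPKM in the knockdown-labelled libraries. Both knockdown-labelled values were more than 10 times either control value, the largest increase among the 27 genes (3.46 in input, 4.24 on polyribosomes). The FPKM of ATF4 was 94.5 times that of ATF5 in control input and 2.99 times in knockdown-labelled input.

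DDIT3, which promotes cell death under prolonged stress, was at 48.3 and 35.2 FPKM in control and at 7.31 and 17.5 FPKM in the knockdown-labelled libraries. Both knockdown-labelled values lay under both control values, with differences of -2.57 in input and -0.97 on polyribosomes (-2.12 with the fractions exchanged). ATF3, a stress-induced repressor, was at 106 and 115 FPKM in control and at 30.4 and 26.3 FPKM in the knockdown-labelled libraries. CEBPB, a partner of ATF4 in gene activation, was at 138 and 128 against 47.8 and 84.6 FPKM, and its differences of -1.51 in input and -0.59 on polyribosomes were -0.70 and -1.40 with the fractions exchanged. CEBPG, which forms dimers with ATF4, was similar in both inputs, at 16.0 and 16.6 FPKM, and at 13.2 and 6.04 FPKM on polyribosomes, and with the fractions exchanged it was lower in input (-1.27) and not on polyribosomes (0.31). NUPR1, a stress-induced chromatin protein, was under the filter, at 3.42 and 3.96 FPKM in control and at 3.61 and 8.78 FPKM in the knockdown-labelled libraries. In all, 4 of the 6 factors past the filter were at least 2-fold lower in input (ATF4, ATF3, DDIT3 and CEBPB) and 1 was higher (ATF5). Of all genes, 14.4% were lower and 13.2% higher. With the fractions exchanged, 3 factors were lower (ATF3, DDIT3 and CEBPG) and 1 higher (ATF5), where 31.8% and 15.9% of all genes were.

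Both eIF2 kinases among the members were at most at 13.8 FPKM. EIF2AK4 (GCN2), the sensor of uncharged tRNA, was at 13.8 and 12.3 FPKM in control and at 5.86 and 1.53 FPKM in the knockdown-labelled libraries, differences of -1.11 and -2.39 (-2.55 and -0.95 with the fractions exchanged). EIF2AK3 (PERK), the sensor in the endoplasmic reticulum, was under the filter at 1.78 and 1.41 against 4.70 and 0.40 FPKM. EIF2AK3 was thus higher in knockdown-labelled input and lower in the matching polyribosome library, at 1.04 and -0.78, and the reverse with the fractions exchanged (-0.99 and 1.24). Of the kinases that are no members, EIF2AK1 (HRI), which senses heme shortage, was more abundant, at 97.7 and 94.7 against 57.8 and 16.6 FPKM. EIF2AK2 (PKR), the sensor of double-stranded RNA, was at 11.8 and 11.3 against 33.0 and 3.65 FPKM. Its differences of 1.41 and -1.40 were -1.46 and 1.47 with the fractions exchanged, and those of EIF2AK1, -0.75 and -2.45, were -2.49 and -0.70.

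The 2 regulatory subunits of the eIF2 phosphatase went in opposite directions in input. PPP1R15A (GADD34), the stress-induced subunit, was at 210 and 181 FPKM in control and at 54.8 and 106 FPKM in the knockdown-labelled libraries, with an input difference of -1.92. PPP1R15B (CReP), the constitutive subunit, was at 6.30 and 4.23 FPKM in control and at 24.4 and 4.19 FPKM in the knockdown-labelled libraries. Only its knockdown-labelled input stood out, at 1.80, and with the fractions exchanged the input difference was -0.49 and the polyribosome difference 2.28. The stress-induced subunit was 33.3 times the constitutive one by FPKM in control input and 2.24 times in knockdown-labelled input. TRIB3, a pseudokinase that binds and restrains ATF4, was at 119 and 114 FPKM in control and at 40.5 and 75.3 FPKM in the knockdown-labelled libraries. The input differences of PPP1R15A and TRIB3 were -0.97 and -0.65 with the fractions exchanged and so no longer reached 2-fold, whereas their polyribosome differences of -0.76 and -0.59 became -1.71 and -1.47.

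DDIT4 (REDD1), which inhibits mTORC1, was among the most abundant members in control and far lower in the knockdown-labelled libraries. It was at 606 and 687 FPKM in control and at 94.8 and 101 FPKM in the knockdown-labelled libraries, so each knockdown-labelled value was under 1 in 5 of either control value (differences -2.66 and -2.76). SESN2, which also restrains mTORC1, was at 14.6 and 13.6 against 10.5 and 19.4 FPKM. CHAC1, which degrades glutathione, was at 13.6 and 14.2 against 10.4 and 18.5 FPKM. For SESN2 and CHAC1 the control values lay between the 2 knockdown-labelled values, and no difference reached 2-fold.

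The serine and one-carbon enzymes did not move as a block. PHGDH, which commits glycolytic 3-phosphoglycerate to serine, was at 45.6 and 59.0 FPKM in control and at 83.8 and 94.8 FPKM in the knockdown-labelled libraries, higher by 0.86 and 0.68 (1.04 and 0.50 with the fractions exchanged). PSAT1, the next enzyme, was at 114 and 134 FPKM in control and at 70.0 and 20.4 FPKM in the knockdown-labelled libraries, with differences of -0.69 and -2.65 (-2.42 and -0.92 with the fractions exchanged). PSPH, the last step, was at 82.5 and 63.2 against 74.1 and 117 FPKM, with neither difference past 2-fold. Within this 3-step pathway the balance of the first steps thus differed: PSAT1 was 2.49 times PHGDH by FPKM in control input, 0.84 times in knockdown-labelled input and 0.22 times in knockdown-labelled polyribosome RNA.

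In the mitochondrial folate pathway, SHMT2 and MTHFD2 also parted. SHMT2, which splits serine into glycine and a one-carbon unit, was at 98.5 and 118 FPKM in control and at 109 and 148 FPKM in the knockdown-labelled libraries, differences of 0.15 and 0.33. MTHFD2, which oxidizes that unit, was at 112 and 126 FPKM in control and at 29.8 and 10.8 FPKM in the knockdown-labelled libraries, differences of -1.88 and -3.43. The ratio of SHMT2 to MTHFD2 was 0.88 in control input and 3.68 in knockdown-labelled input. ALDH1L2, a later mitochondrial folate enzyme, was at 0.10 FPKM in control input and at 0.01 FPKM in the other libraries, the lowest value the table prints above 0. Of the 5 enzymes past the filter, 1 was at least 2-fold lower in input (MTHFD2) and 2 on polyribosomes (MTHFD2 and PSAT1), beside 14.4% and 32.9% of all genes. In either fraction 0 were higher, beside 13.2% of all genes in input and 16.7% on polyribosomes. Exchange of the fractions left 2 lower (MTHFD2 and PSAT1) and 1 higher (PHGDH) in input, and 1 lower on polyribosomes (MTHFD2). Of all genes, 31.8% were then lower and 15.9% higher in input, and 14.0% lower on polyribosomes.

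The enzymes of asparagine and cysteine synthesis differed strongly between the cells. ASNS, the asparagine synthetase and a standard readout of ATF4 activity, was at 79.3 and 99.9 FPKM in control and at 36.3 and 16.1 FPKM in the knockdown-labelled libraries (-1.11 and -2.56). CTH, which releases cysteine from cystathionine, was at 30.5 and 34.2 FPKM in control and at 2.07 and 0.91 FPKM in the knockdown-labelled libraries (-3.36 and -4.20). Each knockdown-labelled value was under 1 in 10 of either control value. CBS, which makes the cystathionine that CTH uses, went the other way, at 0.02 and 0.04 FPKM in control and at 7.55 and 8.67 FPKM in the knockdown-labelled libraries. The 2 consecutive steps of transsulfuration were therefore reciprocal between the cells. CTH exceeded CBS in both control libraries, and CBS exceeded CTH 3.65 times in knockdown-labelled input and 9.53 times on its polyribosomes. CBS was under the filter, so its level is uncertain. The current assembly lists a near-identical copy of CBS, but the processing notes name an earlier build, hg19 and GRCh37.

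The amino acid transporters differed member by member as well. SLC7A5 (LAT1), which imports large neutral amino acids such as leucine, was at 615 and 631 FPKM in control and at 140 and 199 FPKM in the knockdown-labelled libraries (-2.12 and -1.66). SLC3A2, the heavy chain that brings SLC7A5 to the membrane, was at 228 and 267 against 118 and 150 FPKM (-0.94 and -0.83, or -0.60 and -1.17 with the fractions exchanged). The light to heavy chain ratio was 2.70 in control input and 1.19 in knockdown-labelled input. SLC1A5 (ASCT2), a glutamine transporter, was at 207 and 243 FPKM in control and at 249 and 368 FPKM in the knockdown-labelled libraries (0.26 and 0.60). SLC7A11, the cystine importer that shares the SLC3A2 heavy chain, was under the filter at 1.81 and 1.11 against 0.43 and 0.22 FPKM.

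Set side by side, the transcription factors had a median input difference of -1.38 (6 genes), the transporters -0.94 (3 genes) and the serine and one-carbon enzymes -0.15 (5 genes). On polyribosomes the medians were -0.78, -0.83 and 0.33. All genes had medians of 0.01 in input and -0.28 on polyribosomes. With the fractions exchanged, the input medians were -0.98, -0.60 and 0.50 (-0.23 for all genes). The polyribosome medians were then -1.05, -1.17 and -0.10 (-0.01 for all genes), so that of the serine and one-carbon enzymes changed sign. Each role held members on both sides of 0, and with so few genes and 1 library per group the differences between roles were not tested.

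Of the secreted factors, GDF15, a stress cytokine, was at 135 and 148 FPKM in control and at 67.5 and 98.6 FPKM in the knockdown-labelled libraries, just short of 2-fold in input (-0.99). After exchange of the fractions it was at -0.45 in input and -1.12 on polyribosomes. STC2, a secreted stanniocalcin, was at 15.3 and 17.1 against 6.25 and 3.40 FPKM. VLDLR, a lipoprotein receptor, was under the filter at 1.36 and 1.26 against 0.21 and 0.01 FPKM. XPOT, which exports tRNA from the nucleus, was at 59.2 and 57.9 FPKM in control and at 35.0 and 2.71 FPKM in the knockdown-labelled libraries. Its polyribosome difference of -3.99 was the second lowest of the 27 genes, after CTH, but with the fractions exchanged it was -0.71, and the input difference of -0.74 was -4.02. IFRD1, a transcriptional co-regulator whose message carries an upstream reading frame, was at 14.8 and 13.5 against 8.22 and 2.80 FPKM. Its differences of -0.78 and -1.93 were -2.06 and -0.65 with the fractions exchanged.

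Further ATF4 targets that are no members also lay mostly below control. Of 37 listed, the table held 36, and 30 reached the mean of 5 FPKM. In input 10 were at least 2-fold lower (14.4% of all genes) and 2 higher (13.2% of all genes), with a median of -0.78. On polyribosomes 20 were lower (32.9% of all genes) and 1 higher (16.7% of all genes), with a median of -1.35. In the exchanged order, 17 were lower in input (31.8% of all genes) and 12 on polyribosomes (14.0%), with medians of -1.30 and -0.93. The lowest in input were MTHFD1L, a mitochondrial folate enzyme (-2.79), JDP2, a bZIP repressor (-1.66), and CARS, a cysteinyl-tRNA synthetase (-1.58). The highest were the lysosomal protein LAMP3 (3.98), and the threonyl- and isoleucyl-tRNA synthetases TARS (1.60) and IARS (0.60). With the fractions exchanged, the input differences were 1.49 for LAMP3, -2.43 for TARS, -2.94 for IARS and -0.46 for JDP2. The 8 subunits of eIF2 and of its exchange factor eIF2B were close to control in input, with a median of 0.24. Of them 1 was at least 2-fold lower (EIF2B2 at -1.02) and 0 were higher, beside 14.4% and 13.2% of all genes. On polyribosomes 5 of the 8 were lower (32.9% of all genes), to -2.84 for EIF2S2. Exchange put EIF2S2 at 0.27 on polyribosomes and moved its input difference from 0.30 to -2.81. With the fractions exchanged, the eIF2 and eIF2B medians were -1.13 in input and -0.14 on polyribosomes.

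The next comparison was between fractions of the same cells. The measure was polyribosome FPKM over input FPKM, on the log2 scale after adding 1 to each value. Each FPKM is scaled to its own library, so the ratio places a message relative to the others. It does not give the share of a message that was on polyribosomes. In control cells the 27 genes ranged from -0.55 for ATF4 to 0.36 for PHGDH, with a median of 0.04 against 0.03 for all genes. None was at least 2-fold lower (0.759% of all genes) or higher (0% of all genes). The lowest 5 were ATF4 (-0.55), PPP1R15B (-0.48), DDIT3 (-0.45), PSPH (-0.38) and CEBPG (-0.26), and ATF4 stood at the 4.4th percentile of all genes. The 6 messages listed for regulation through upstream reading frames were ATF4, ATF5, DDIT3, PPP1R15A, PPP1R15B and IFRD1. All were below 0, from -0.55 to -0.09, as were 45.2% of all genes. The list was made with earlier results of these data known, so this is a description and no test. The enzymes PHGDH (0.36), ASNS (0.33), SHMT2 (0.26) and PSAT1 (0.23) were at the upper end.

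To set this beside a sequence feature, AUG triplets before the annotated start codon were counted in 1 GENCODE 29 transcript per gene. ATF4 held 7 of them, DDIT3 3, and PPP1R15A, PPP1R15B and ATF5 2 each, in the transcripts used. Across 7156 genes with a matched transcript, the median control ratio was 0.09 with no upstream AUG (3704 genes), -0.01 with 1 (1519 genes) and -0.06 with 2 or more (1933 genes). Among the stress response genes, 13 of 27 held 2 or more (48.1%, against 27.0% of all genes), and 9 of these 13 were below 0 in control (69.2%), near the 58.6% of all genes in that class. The exceptions included PHGDH, with 10 upstream AUGs and a ratio of 0.36, and STC2, with 11 and a ratio of 0.15. The used transcript need not be the one these cells make, and leader length moves with the number of AUGs (882 bases in ATF4, 1310 in STC2). Its part was not tested.

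**Figure D3:**
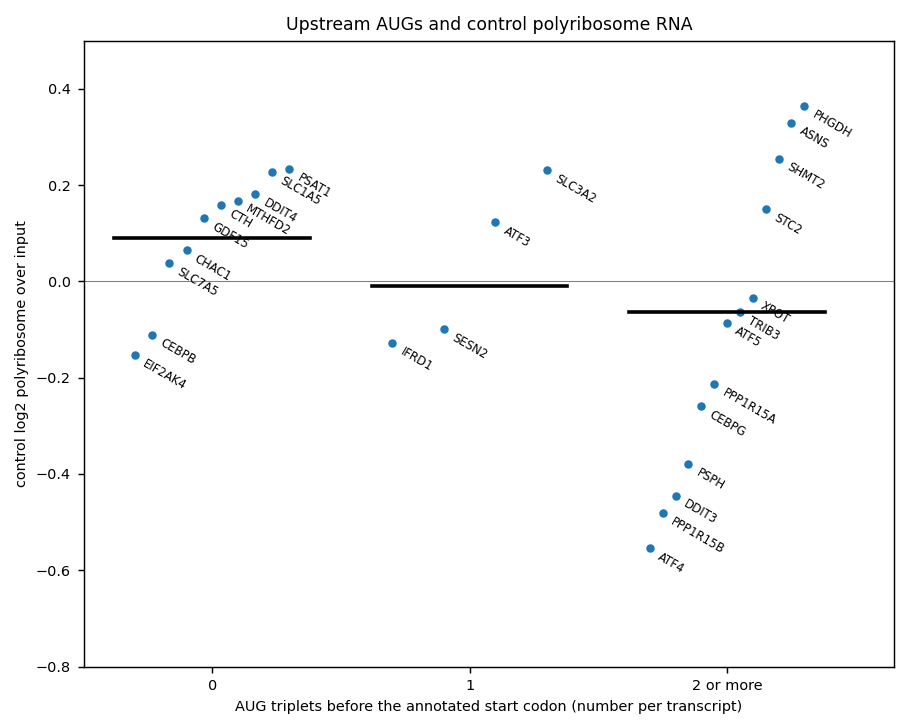
Control log2 ratio of polyribosome to input RNA for the 27 genes past the filter, by the number of AUG triplets before the annotated start codon. Points are genes from 1 library pair, spread sideways by value, and black bars are the medians of all genes in each class (0.09, -0.01 and -0.06). ATF4, PPP1R15B and DDIT3 lie lowest, in the class with 2 or more.

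In knockdown-labelled cells the same ratio spread much further, from -3.28 for XPOT to 1.15 for DDIT3. Of the 27 genes, 2 were at least 2-fold higher on polyribosomes than in input (ATF4 at 1.07 and DDIT3 at 1.15), where 8.62% of all genes were, and 8 were at least 2-fold lower, where 28.8% were. The 8 were XPOT (-3.28), PPP1R15B (-2.29), PSAT1 (-1.73), EIF2AK4 (-1.44), MTHFD2 (-1.38), CEBPG (-1.32), IFRD1 (-1.28) and ASNS (-1.13). Against control, 4 genes had a ratio at least 2-fold higher (ATF4 by 1.63, DDIT3 by 1.60, PPP1R15A by 1.16 and PSPH by 1.03, against 12.0% of all genes) and 8 at least 2-fold lower (30.1% of all genes). The 6 upstream reading frame messages divided: ATF4, DDIT3, PPP1R15A and ATF5 were above 0 in knockdown-labelled cells, and PPP1R15B and IFRD1 below. Their base composition, given below, differed along the same division. In the authors' deposited table, whose ratio adds 5 to each FPKM, ATF4 went from 0.684 to 2.08, DDIT3 from 0.755 to 1.83 and XPOT from 0.978 to 0.193.

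**Figure D4:**
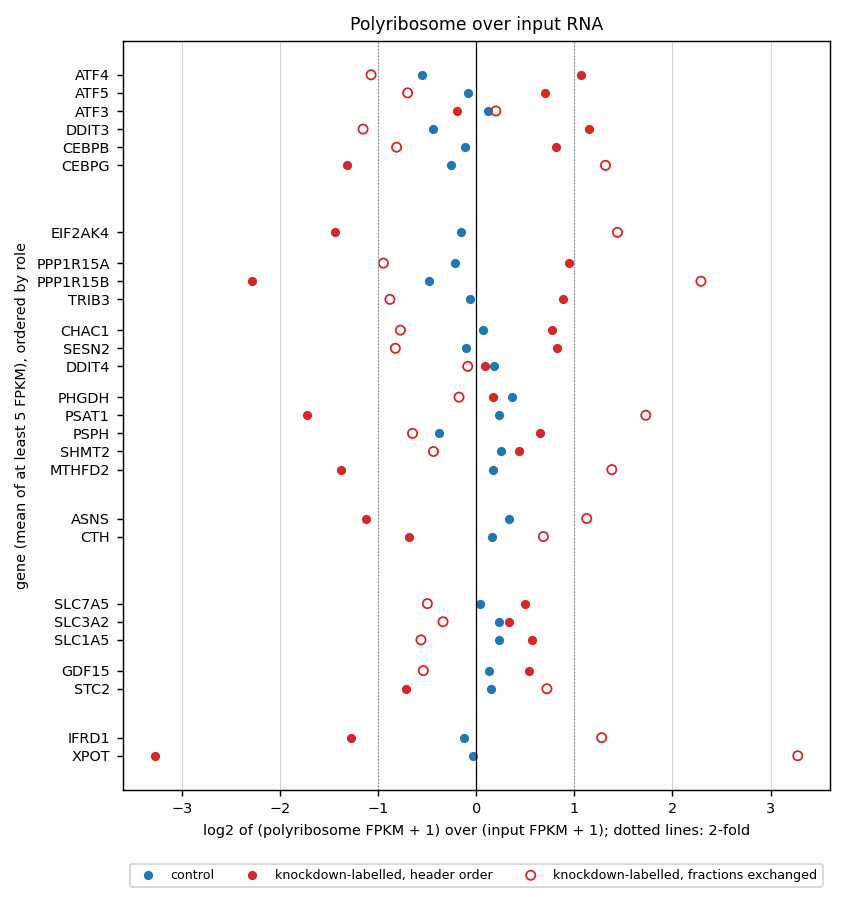
Log2 ratio of polyribosome to input RNA in control (blue), in knockdown-labelled cells with the header's column order (filled red) and with the fractions exchanged (open red), 1 value per gene for the 27 genes past the filter. Control values lie between -0.55 and 0.36, and the knockdown-labelled values run from -3.28 to 1.15 and mirror about 0 when the fractions are exchanged.

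The knockdown-labelled ratio followed the base composition of the messages. Across the 7156 genes its Pearson correlation with transcript GC content was 0.80, against 0.06 for the control ratio. These points are genes of 1 pair of libraries and are no replicates. The 16 stress response genes above 0 had transcripts of 49.8% to 66.2% GC (median 59.2%), and the 11 below 0 (50.6% of all genes were below 0) had 40.8% to 51.7% (median 43.4%), so the groups overlapped over a narrow range. Over the 27 genes r was 0.83. For the difference between cells, r with GC content was -0.08 in input (0.08 over the 27) and 0.54 on polyribosomes (0.59 over the 27). Of the upstream reading frame messages, PPP1R15B and IFRD1 had 43.4% and 41.8% GC, and the others 50.6% (DDIT3) to 60.0% (ATF5). GC content and length were then removed by a trend over all genes. The knockdown-labelled ratio became 0.46 for ATF4, 0.84 for DDIT3, 0.18 for PPP1R15A, -0.21 for ATF5 and -0.01 for IFRD1. That of MTHFD2 was 0.11 and that of PSAT1 -0.54, and the median of all genes was -0.37. XPOT (-1.68) and PPP1R15B (-1.10) were then the 2 genes of the 27 at least 2-fold lower, and 0 were higher. No share of all genes is given beside these counts. The change from control was still at least 2-fold for ATF4 (1.08), DDIT3 (1.38), PSPH (1.26) and XPOT (-1.80). With the fractions exchanged, the change was -0.52 for ATF4, -0.71 for DDIT3 and 3.31 for XPOT. What gave this dependence on composition was not tested.

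**Figure D5:**
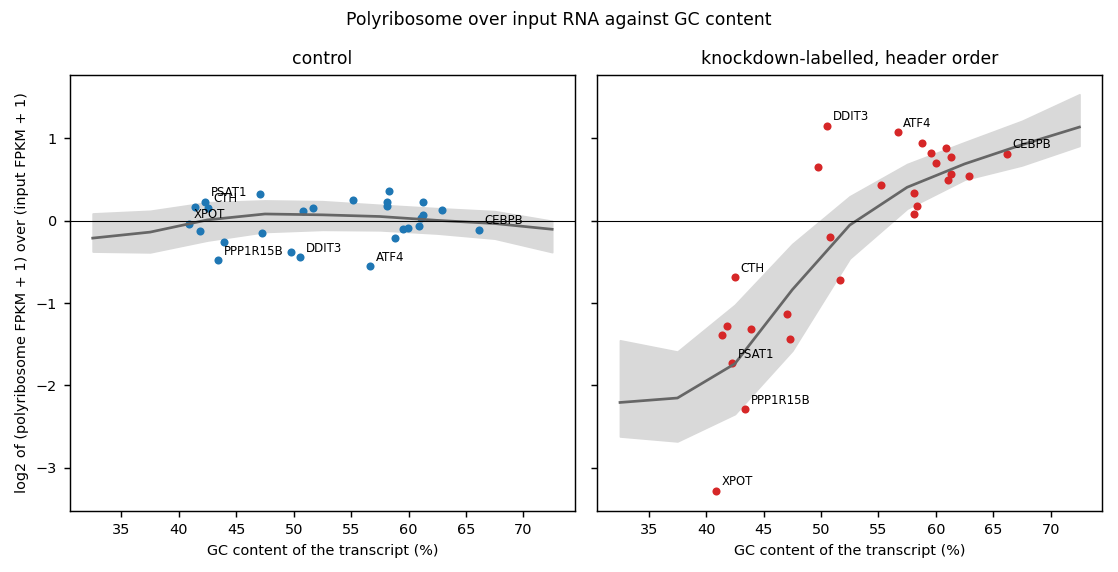
Log2 ratio of polyribosome to input RNA against transcript GC content (%), in control (left) and knockdown-labelled cells (right, header order). Points are the 27 genes, the line is the median and the grey band the middle 50% of all genes in bins of 5% GC. The control line is nearly flat, and the knockdown-labelled line climbs from -2.21 to 1.14. DDIT3, ATF4, XPOT and CTH are among the points outside its band.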

How the data were processed

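The authors deposited 1 table of FPKM per gene symbol for the 4 libraries, and a ratio of polyribosome to input FPKM for each cell pair. Per the labels that ratio is the quotient of FPKM, and recomputing it showed an added constant of 5 in numerator and denominator (largest gap 5e-10). The submitters' processing notes name TopHat, hg19 and GRCh37. Counting tool, strand setting and filters: not given in the sources used here. The library kit was a stranded mRNA one, per the labels' protocols. Values are printed to 0.01 FPKM, so whole reads were not recovered. In 26 rows a number stands in place of a name.

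Differences were taken on the log2(FPKM + 1) scale, where those of low genes are understated. Genes whose mean reached 5 FPKM were counted at 2-fold. All 33 members could be named; of other pathway lists, up to 3 at each end in input. Others (EIF2AK1, EIF2AK2, EIF2S2, EIF2B2, METTL1) were named after their values were seen. Members and lists were chosen with earlier results of these data known. GC content, length and upstream AUGs came from 1 GENCODE 29 transcript per gene (97.0% of 7379 matched). Promoters are RefSeq's, on GRCh38.p14, which is not the build of the processing notes. Python 3.11.15 with pandas 2.3.3 was used, tested on simulated data.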

Additional observations from a re-analysis of the deposited data

Results flagged for a closer look

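For 7 of the 27 genes the polyribosome to input ratio lay on opposite sides of 0 in control and knockdown-labelled cells and differed at least 2-fold, which is 25.9% of them against 28.2% of all genes. The log2 difference, knockdown-labelled minus control, was 1.63 for ATF4, 1.60 for DDIT3, 1.16 for PPP1R15A, 1.03 for PSPH, -1.46 for ASNS, -1.55 for MTHFD2 and -1.96 for PSAT1. With 1 library per group these differences were not tested.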

How the results depend on the processing

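No paired analysis was possible because each group had 1 library. Of 135 member values, 50 were at least 2-fold. A value counted as reversed if it was among these 50 and changed sign. A pseudocount of 0.1 or 5 and centring on the median of all genes reversed none. With the filter lowered to 1 FPKM, or left out, 4 genes were higher in input and 2 on polyribosomes. The number higher on polyribosomes was 2 with fractions exchanged (12.7% of all genes) or with centring. It was 3 with GC content and length removed, where the polyribosome median was -1.45, against -0.38 for all genes. For the knockdown-labelled ratio, a pseudocount of 5 gave 1 gene higher and 4 lower. Exchange gave 8 higher (28.8% of all genes), 2 lower (8.62%) and a median of -0.34 (0.02 for all genes). GC and length removal gave 0 higher, 2 lower and a median of -0.33 (-0.37 for all genes). The main median was 0.34, and that of all genes -0.02. For the change in ratio, the pseudocount of 5 gave 5 lower. Exchange gave 7 higher (27.8% of all genes), 0 lower (6.29%) and a median of -0.52, against 0.11. The all-gene medians were -0.05 on exchange and -0.12 in the main values. Centring gave 7 higher, and GC and length removal 1 lower. Shares of all genes at least 2-fold apart are given for the main values and the exchange only. Counts under the other settings therefore cannot be set against all genes.

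Exchange touched 108 values, and of the 50 that were at least 2-fold it reversed 24. Values under 2-fold that changed sign were not counted, such as CHAC1 in input, from -0.35 to 0.42. Every knockdown-labelled ratio changes sign on exchange by construction. In input PPP1R15B became -0.49, and on polyribosomes CEBPG became 0.31. The knockdown-labelled ratio became -1.07 for ATF4, -1.15 for DDIT3, 1.32 for CEBPG, 1.44 for EIF2AK4, 2.29 for PPP1R15B, 1.73 for PSAT1, 1.38 for MTHFD2, 1.13 for ASNS, 1.28 for IFRD1 and 3.28 for XPOT, by construction. The change in ratio became -0.52 for ATF4, -0.71 for DDIT3, 1.58 for CEBPG, 1.59 for EIF2AK4, -0.73 for PPP1R15A, 2.77 for PPP1R15B, 1.50 for PSAT1, -0.27 for PSPH, 1.21 for MTHFD2, 0.80 for ASNS, 1.41 for IFRD1 and 3.31 for XPOT. Of the 50, GC and length removal reversed 2, the knockdown-labelled ratio of MTHFD2 (0.11) and the change in ratio of IFRD1 (0.10). Smaller values that changed sign were not counted. Among the knockdown-labelled ratios, CEBPB went from 0.81 to -0.57, GDF15 from 0.54 to -0.78 and ATF5 from 0.70 to -0.21. Those of ATF4, DDIT3, PPP1R15A, SESN2, PSPH and SHMT2 stayed above 0. The cause was not tested. Depth is unknown, so no counting error can be given.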
